A study of Homo sapiens with 6 samples.

Results

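Carbohydrate sulfotransferases and the enzymes that build glycosaminoglycans were followed in U251 cells, an established human glioma line, on 6 Affymetrix expression arrays. The set was chosen by gene symbol alone. It takes the CHST, NDST, GAL3ST, HS2ST, HS3ST, HS6ST, EXTL, B3GAT, XYLT and SULF families together with EXT2, UST, UGT8, UGDH, UXS1, CHSY1, CHSY3, CHPF, CHPF2, CSGALNACT1, CSGALNACT2 and GLCE, and 55 of the 19775 genes with a probe set of their own belonged to it. They were read by 100 probe sets, and each gene was represented by its brightest probe set, judged on all 6 arrays together. NDST2 fits the symbols but had no probe set of its own. One group of 3 arrays came from cells overexpressing PARK2, which codes for the ubiquitin ligase parkin, and the other group of 3 from control cells overexpressing GFP. Both lines shared the same history of viral infection with polybrene and puromycin selection and the same serum-containing medium, and the labels do not say whether either line was a single clone or a pool. The arrays of a group are called biological replicates with nothing said of separate cultures, so p-values measure the spread between these arrays, which may be technical.

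Glycosaminoglycans are long sugar chains attached to core proteins at the cell surface and in the matrix. A linkage sugar sequence is laid down first, a polymerase then extends it as heparan sulfate or as chondroitin and dermatan sulfate, and sulfotransferases place sulfate groups at defined positions on the finished disaccharides. The pattern of sulfate groups sets which growth factors, enzymes and adhesion proteins bind the chain. Keratan sulfate, the HNK-1 epitope and the sulfated galactolipids of myelin are made by related sulfotransferases on other carriers. In brain tissue and in glioma, chondroitin sulfate and heparan sulfate proteoglycans are main components of the matrix.

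Of the 55 genes, 39 passed the filter on dim probe sets, which was set on the mean log2 value over all 6 arrays (a floor that corresponds to an intensity of 9.87), and 16 did not. Among the 39, limma called 11 higher and 13 lower in PARK2 cells at an adjusted p under 0.05, while 15 did not pass. Over all 13720 genes tested, 13.3% were higher and 15.6% lower, against 28.2% and 33.3% of the 39. Changes of 2-fold or more that also passed were seen in 8 of the 39 (5 higher and 3 lower, 20.5%) against 5.59% of all genes tested. HS6ST2, at a fold of 1.999, lay just under that limit, and HS6ST1, at 2.49, was the member just over it. The median of the log2 fold changes was -0.09 for the 39 and -0.0026 for all genes, and the median of their sizes without sign was 0.56 against 0.25. UGT8 and HS3ST5 passed the filter through the PARK2 arrays alone, so that they had to differ, and the counts over the 39 are given as a description.

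**Figure D1:**
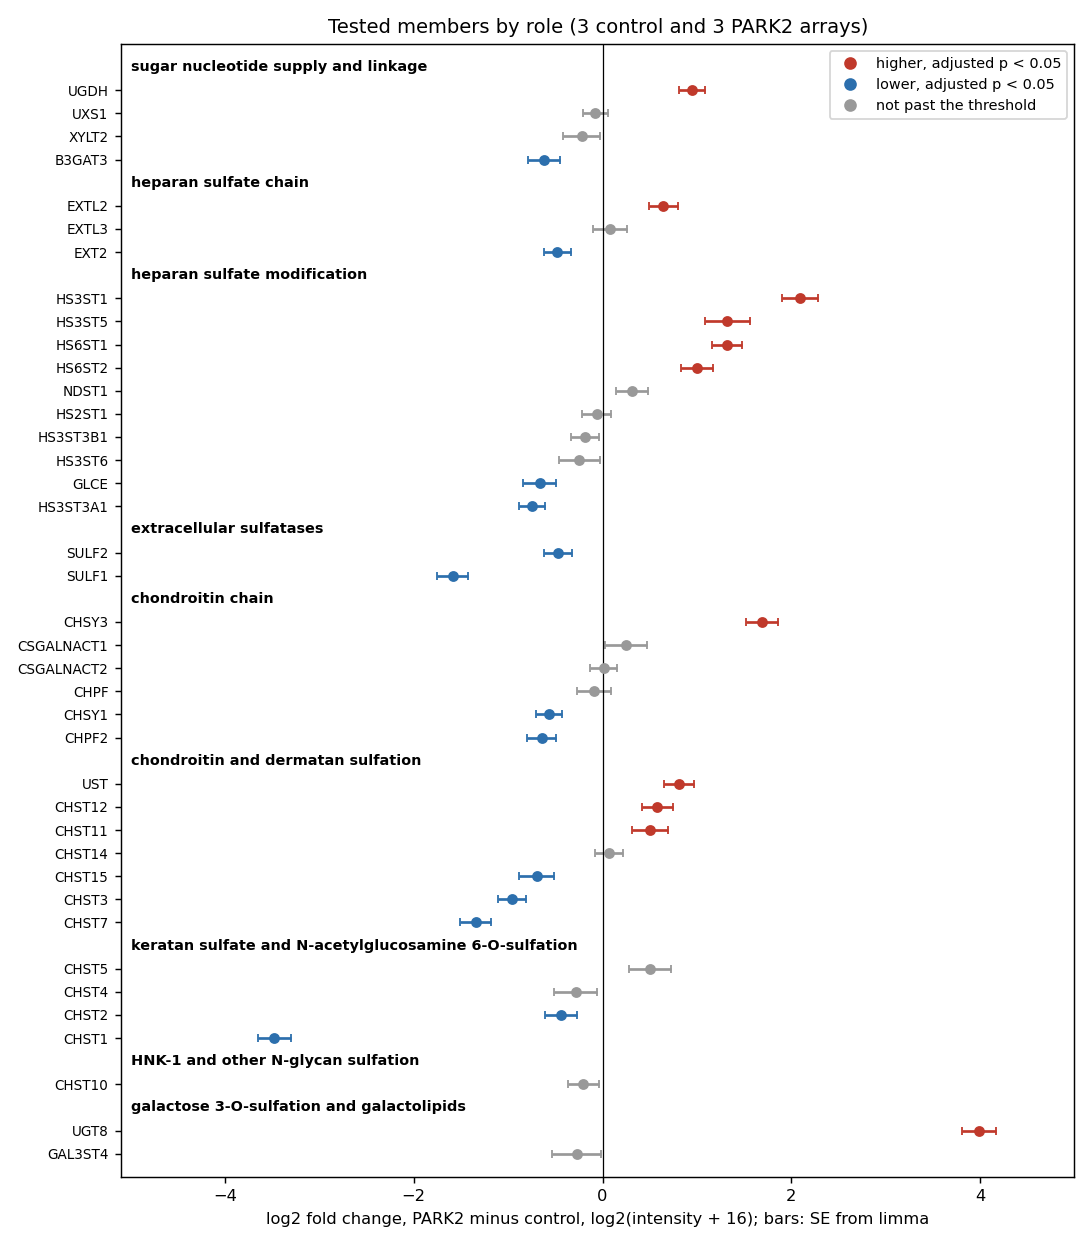
Log2 fold change of the 39 tested members (x axis, PARK2 minus control on the log2(intensity + 16) scale) by role, with bars for limma's SE and 3 arrays per group; red is higher and blue lower at an adjusted p under 0.05, grey not past it. UGT8 at 3.99 and CHST1 at -3.48 stand at the ends, and every role with 3 or more tested members holds genes past the threshold.

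No role moved in a single direction as a whole except the 2 extracellular sulfatases, which were both lower. Of 4 tested genes of sugar nucleotide supply and linkage 1 rose and 1 fell, of 3 heparan sulfate chain genes 1 rose and 1 fell, and of 10 heparan sulfate modification genes 4 rose and 2 fell. Of 6 chondroitin chain genes 1 rose and 2 fell, of 7 chondroitin and dermatan sulfotransferases 3 rose and 3 fell, and of 4 keratan sulfate and N-acetylglucosamine sulfotransferases 0 rose and 2 fell. The groups did not overlap for 25 of the 39 (64.1%), against 39.5% of all genes tested. These 25 are the 24 genes past the threshold and CSGALNACT1. In what follows a level is an intensity of 1 probe set, with its SD over 3 arrays, and intensities of different genes are not set against each other. A fold change is a difference of log2(intensity + 16), PARK2 minus control, and adjusted p is limma's with Benjamini-Hochberg adjustment over the 13720 genes. For a further probe set of a gene, adjusted p is from a separate limma fit over every probe set past the filter, unless another setting is named. The 2 kinds of adjusted p are not to be set against each other.

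The supply of sugar precursors and the linkage region come first in the pathway. UGDH, the dehydrogenase that makes UDP-glucuronic acid, read 862, 723 and 745 on the control arrays and 1429, 1412 and 1709.8 on the PARK2 arrays. Every PARK2 array was above every control array, and the log2 fold change was 0.95 (SE 0.14, adjusted p 9.6e-08). UXS1, which turns UDP-glucuronic acid into UDP-xylose, read 1783, 1561 and 1415 on the control arrays and 1329.9, 1531 and 1647 on the PARK2 arrays. These 2 groups overlapped, with a log2 fold change of -0.08 (SE 0.13, adjusted p 0.74). B3GAT3 adds the glucuronic acid that completes the linkage region, and it fell from 195 ± 16.1 to 121 ± 7.6 (SD, n = 3), a log2 fold change of -0.62 (SE 0.17, adjusted p 0.00253). Its arrays read 201, 208 and 177 on the control arrays and 116, 118 and 129.9 on the PARK2 arrays, without overlap, and its other probe set was at -0.59 (adjusted p 0.0139 in a fit over every probe set). The brightest probe set of B3GAT3 had an adjusted p of 0.009 in that fit. XYLT2, one of the xylosyltransferases that start the chain, was at -0.22 (SE 0.19, adjusted p 0.44), and XYLT1 was under the filter.

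Heparan sulfate chains are extended by a complex that contains EXT2, and the EXTL proteins act at their start and end. EXT2 read 1312, 1008 and 963 on the control arrays and 770.1, 749 and 797 on the PARK2 arrays. All PARK2 arrays were below all control arrays and the log2 fold change was -0.48 (SE 0.14, adjusted p 0.00712), though the call was lost without PARK2 replicate 2 (adjusted p 0.057). EXTL2, an N-acetylhexosaminyltransferase that can end a chain at the linkage region, read 486, 502 and 341 on the control arrays and 680.2, 662 and 734 on the PARK2 arrays. It moved the opposite way from EXT2, with a log2 fold change of 0.64 (SE 0.15, adjusted p 6.8e-04). EXTL3, which adds the first N-acetylglucosamine, read 90.04, 80.4 and 71.2 on the control arrays and 78.7, 94.4 and 84.0 on the PARK2 arrays. Its groups overlapped, at a log2 fold change of 0.08 (SE 0.18, adjusted p 0.81).

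Among the 6-O- and 3-O-sulfotransferases that passed the threshold, HS6ST1, HS6ST2, HS3ST1 and HS3ST5 were higher in PARK2 cells and HS3ST3A1 was lower. HS3ST5 passed the filter through the PARK2 arrays alone, so its direction was fixed by the filter. The promoters of the 4 higher genes are shown as a description, and they were chosen after their values were seen. Each line gives the 150 bases before the start that RefSeq lists (GRCh38.p14), 5′ to 3′ on the strand of the gene, with matches on either strand in capitals. The motifs searched were GGGCGG as the GC box, CCAAT as the CCAAT box, TATAAA as the TATA box, and CACGTG as the E-box. All 4 lie on the minus strand, HS6ST1 at chr2:128318869-128319018, HS6ST2 at chrX:132961371-132961520, HS3ST1 at chr4:11428895-11429044 and HS3ST5 at chr6:114343024-114343173.
HS6ST1: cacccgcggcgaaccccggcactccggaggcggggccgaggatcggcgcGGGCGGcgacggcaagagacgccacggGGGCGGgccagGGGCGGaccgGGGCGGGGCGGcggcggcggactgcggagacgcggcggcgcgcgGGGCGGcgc
HS6ST2: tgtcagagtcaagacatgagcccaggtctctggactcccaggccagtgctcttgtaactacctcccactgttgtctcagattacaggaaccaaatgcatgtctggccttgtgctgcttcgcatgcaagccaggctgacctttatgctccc
HS3ST1: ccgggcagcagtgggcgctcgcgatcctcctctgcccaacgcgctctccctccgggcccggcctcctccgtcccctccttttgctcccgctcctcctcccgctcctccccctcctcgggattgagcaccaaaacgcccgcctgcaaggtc
HS3ST5: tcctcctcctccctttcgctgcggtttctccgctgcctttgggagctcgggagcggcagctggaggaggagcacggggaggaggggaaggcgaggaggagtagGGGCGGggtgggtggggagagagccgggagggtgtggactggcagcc
Over the 250 bases before the start, G and C made up 80.4% in HS6ST1, 48.0% in HS6ST2, 73.2% in HS3ST1 and 70.4% in HS3ST5, against a median of 58.0% over the promoters of the table. GGGCGG matched 7 times in the 250 bases of HS6ST1 (6 in the part shown, of which 2 overlap), 0 times in HS6ST2, and 1 time in HS3ST1, before the part shown, and in HS3ST5. Of the 11 genes that rose, 10 held GGGCGG before a listed start, as did 11 of the 11 genes that fell and were looked up, against 46.2% of 27305 genes in the table. CCAAT was held by 1 and 4 of them (37.0% of genes in the table), TATAAA by 0 and 1 (13.0%) and CACGTG by 2 and 3 (7.73%). The 27305 genes were not limited to genes that passed the filter, while the members counted here all did. No share was taken over the tested genes or over members that did not pass. These shares therefore do not compare changed with unchanged genes. A match describes the letters and is not a binding site.

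HS6ST1, a 6-O-sulfotransferase of glucosamine in heparan sulfate, read 194, 170.2 and 146 on the control arrays and 445, 457 and 432 on the PARK2 arrays. The lowest PARK2 array was over 2 times the highest control array, and the log2 fold change was 1.32 (SE 0.16, adjusted p 3.9e-10). HS6ST2, its paralogue, read 177, 171 and 114 on the control arrays and 298, 320.1 and 340.3 on the PARK2 arrays. Its log2 fold change was 1.00 (SE 0.17, adjusted p 1.7e-06), and a further probe set was at 0.86 (adjusted p 9.2e-04). In the fit over every probe set the brightest one of HS6ST2 had an adjusted p of 4.3e-04. The dimmer probe set of HS6ST1 that passed the filter was at 0.68 (adjusted p 0.0917). HS6ST3, the remaining 6-O-sulfotransferase, was under the filter, at 7.31 ± 4.86 on control arrays and 7.78 ± 6.64 on PARK2 arrays.

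The sulfatases SULF1 and SULF2, which remove 6-O-sulfate from heparan sulfate outside the cell, were both lower in PARK2 cells. SULF1 read 761, 566 and 427 on the control arrays and 177, 197 and 163 on the PARK2 arrays. All PARK2 arrays were below all control arrays, with a log2 fold change of -1.59 (SE 0.17, adjusted p 3.0e-12). Both other probe sets of SULF1 were lower too, at -1.36 and -0.79 (adjusted p 3.3e-05 and 0.0171). In the same fit over every probe set the brightest one of SULF1 had an adjusted p of 6.3e-06. SULF2 read 1102, 812 and 691 on the control arrays and 590.4, 592 and 652 on the PARK2 arrays, a log2 fold change of -0.47 (SE 0.15, adjusted p 0.0133). Its call was lost without control replicate 1 (-0.29, adjusted p 0.0561), without PARK2 replicate 1 (0.0596) or 2 (0.074), without the filter (0.0708) and without the intensity trend in the variance model (0.0701).

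**Figure D2:**
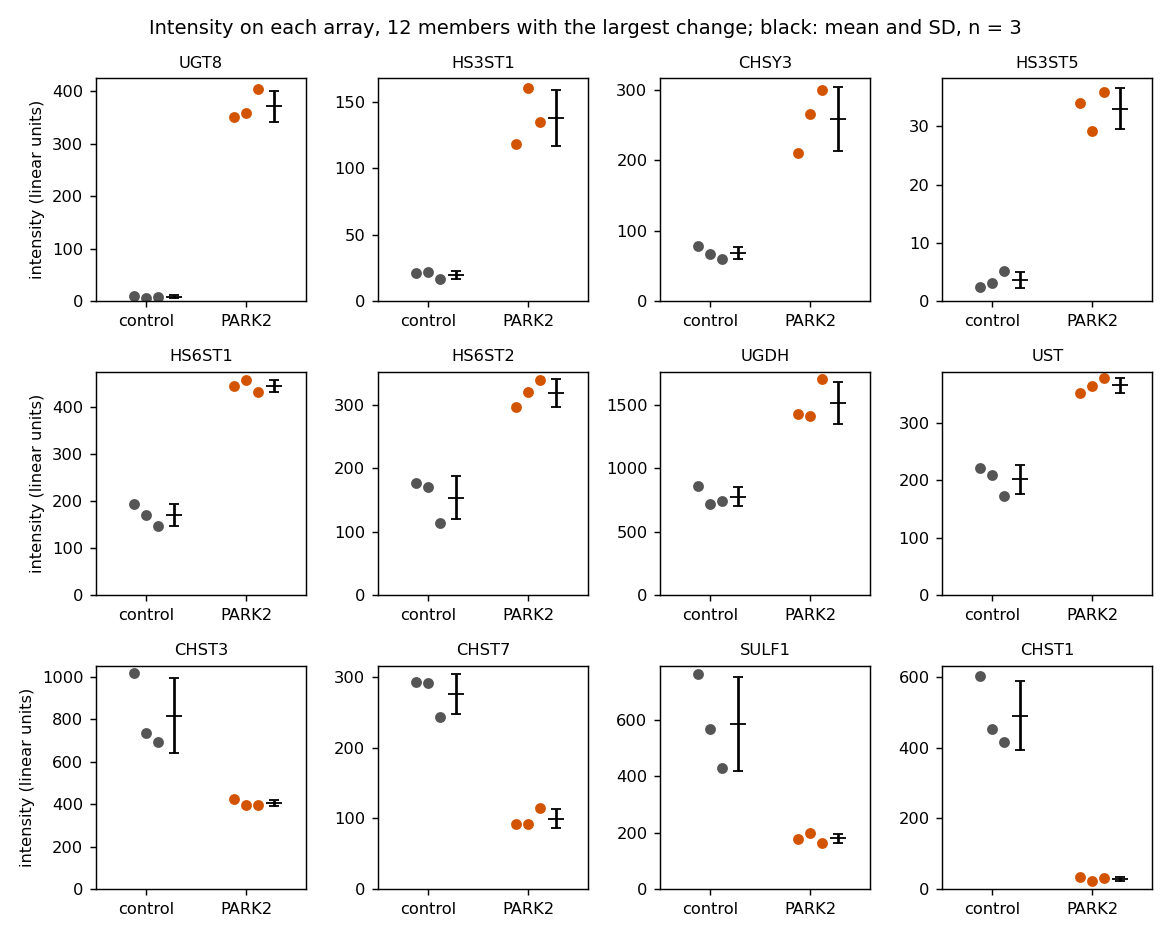
Intensity on each array (y axis, linear units from 0) for the 12 members with the largest change past the threshold, with control arrays in grey, PARK2 arrays in orange, and the mean with SD (n = 3) in black. In all 12 panels the groups do not overlap, and CHST3, SULF1 and CHST1 show a wider spread among control than among PARK2 arrays.

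The 3-O-sulfotransferases, which add the rarest sulfate of heparan sulfate, split between isoforms. HS3ST1, known for making the antithrombin-binding site, read 21.2, 21.9 and 16.5 on the control arrays and 118, 161 and 135 on the PARK2 arrays. Its log2 fold change was 2.09 (SE 0.19, adjusted p 1.6e-14), and 2.73 and 1.26 with 1 and 64 in place of 16 as the pseudocount. The probe set is marked _s_at, which can read more than 1 transcript. The other probe sets of HS3ST1 are marked _x_at or _s_at and were under the filter, at 0.38 and 0.16. HS3ST1 was therefore not tested without such probe sets. HS3ST5 read 2.5, 3.12 and 5.12 on the control arrays and 33.9, 29.2 and 35.9 on the PARK2 arrays. All 3 control arrays were under the filter floor, so its log2 fold change of 1.32 (SE 0.23, adjusted p 6.0e-06) depends on the pseudocount (2.93 with 1 and 0.52 with 64). HS3ST3A1, of the isoforms known for the herpes simplex glycoprotein D binding site, read 1796, 1868 and 1719.9 on the control arrays and 929, 1139 and 1127 on the PARK2 arrays. It fell, with a log2 fold change of -0.75 (SE 0.13, adjusted p 8.5e-06) and no overlap. HS3ST3B1, which lies beside HS3ST3A1 on the chromosome and makes the same product, read 556, 483 and 426 on the control arrays and 433, 435 and 407 on the PARK2 arrays. Its groups overlapped, and the log2 fold change was -0.19 (SE 0.15, adjusted p 0.41). HS3ST6 was at -0.25 (SE 0.22, adjusted p 0.45), while HS3ST2 and HS3ST4 were under the filter.

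Of the enzymes that act on the chain before 6-O- and 3-O-sulfation, GLCE passed the threshold and NDST1 and HS2ST1 did not. GLCE, the epimerase that turns glucuronic into iduronic acid, read 250.5, 239 and 196 on the control arrays and 121, 112 and 189 on the PARK2 arrays. PARK2 replicate 3 lay close to the lowest control array, though the groups did not overlap, and the log2 fold change was -0.67 (SE 0.17, adjusted p 0.00183). NDST1, which replaces N-acetyl by N-sulfate groups and so prepares the other steps, had overlapping groups and a log2 fold change of 0.31 (SE 0.17, adjusted p 0.17). It passed under quantile normalization (0.32, adjusted p 0.0426), under trimmed mean scaling (0.0295) and without control replicate 1 (0.0403). HS2ST1, the 2-O-sulfotransferase of iduronic acid, was at -0.06 (SE 0.15, adjusted p 0.82), and none of its 3 other probe sets past the filter passed. NDST3 and NDST4 were under the filter.

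Chondroitin chains are polymerised by CHSY and CHPF proteins after CSGALNACT enzymes add the first N-acetylgalactosamine. CHSY1 and CHSY3, chondroitin synthases of the same family, changed in opposite directions. CHSY3 read 77.9, 67.6 and 59.98 on the control arrays and 209.8, 266 and 299.7 on the PARK2 arrays, with a log2 fold change of 1.69 (SE 0.17, adjusted p 1.2e-12). CHSY1 read 2037, 1485 and 1497 on the control arrays and 1095, 1098 and 1151 on the PARK2 arrays, with a log2 fold change of -0.56 (SE 0.14, adjusted p 9.6e-04). Neither gene had overlapping groups, and both were read by a single probe set. CHPF2, a polymerising factor, read 684, 564 and 507 on the control arrays and 375, 387 and 336 on the PARK2 arrays. It fell, with a log2 fold change of -0.64 (SE 0.15, adjusted p 6.7e-04), and its other probe set was at -0.57 (adjusted p 0.034). CHPF was at -0.09 (SE 0.18, adjusted p 0.77). CSGALNACT2 read 954, 752 and 777 on the control arrays and 766, 861 and 872 on the PARK2 arrays, and at 0.01 (SE 0.14, adjusted p 0.96) it had the smallest change of the 39. CSGALNACT1 was at 0.25 (SE 0.22, adjusted p 0.45), the 1 member whose groups did not overlap although it missed the threshold.

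Among the chondroitin sulfotransferases, those of the 6-O-position were lower by their brightest probe sets, and those of the 4-O- and 2-O-positions that passed were higher. The 3 higher calls, of CHST11, CHST12 and UST, were each lost under another choice of probe set, and CHST14 did not pass. CHST3, the main chondroitin 6-O-sulfotransferase, read 1020.2, 736 and 695 on the control arrays and 424, 398 and 397 on the PARK2 arrays. Its log2 fold change was -0.96 (SE 0.15, adjusted p 6.0e-07), and its second bright probe set was at -0.81 (adjusted p 0.00119). CHST7, which also sulfates the 6-position, read 294, 292 and 244 on the control arrays and 91.9, 91.4 and 115 on the PARK2 arrays. It fell from 277 ± 28.2 to 99.4 ± 13.4 (SD, n = 3), a log2 fold change of -1.34 (SE 0.17, adjusted p 8.4e-10). CHST15, which adds a 6-O-sulfate to a residue already sulfated at the 4-position, read 191, 133 and 95.2 on the control arrays and 72.1, 81.6 and 77.0 on the PARK2 arrays. The control arrays spread widely but did not overlap with PARK2 arrays, and the log2 fold change of -0.70 (SE 0.18, adjusted p 0.00228) missed the threshold when no filter was used (adjusted p 0.0595).

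CHST12, a 4-O-sulfotransferase, read 249, 190.5 and 171 on the control arrays and 313, 278 and 336 on the PARK2 arrays, a log2 fold change of 0.58 (SE 0.16, adjusted p 0.00429). The probe set is marked _s_at, which can read more than 1 transcript, and the one left without such probe sets gave 0.35 (adjusted p 0.13). UST, the 2-O-sulfotransferase of uronic acid, read 222, 210.3 and 174 on the control arrays and 353, 365 and 379 on the PARK2 arrays. It rose by 0.81 (SE 0.16, adjusted p 3.5e-05), while a dim probe set of UST was at -0.08 and the mean of both missed the threshold (0.37, adjusted p 0.0763). The probe sets of UST, like those of EXT2, are all marked _s_at, so neither gene was tested without such probe sets. CHST11, another 4-O-sulfotransferase, lost its call under more alternatives than any other of the 11 higher genes. Its brightest probe set read 70.3, 38.6 and 53.2 on the control arrays and 77.5, 74.2 and 93.7 on the PARK2 arrays, a log2 fold change of 0.50 (SE 0.19, adjusted p 0.0393). The other 2 probe sets of CHST11, of similar brightness, were at -0.01 and -0.29 and did not pass, and their mean with the first was at 0.07 (adjusted p 0.82). The call was also lost without control replicate 2 (0.33, adjusted p 0.32), without PARK2 replicate 1, 2 or 3 (adjusted p 0.0758, 0.0626 and 0.19), without the filter (0.16) and without the trend (0.0577), and its value was 0.31 with a pseudocount of 64. CHST14, the dermatan 4-O-sulfotransferase, read 641, 473 and 503 on the control arrays and 545, 596 and 543 on the PARK2 arrays. Its groups overlapped, at 0.07 (SE 0.15, adjusted p 0.80), and CHST13 was under the filter.

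The largest fall of the set was that of CHST1, which sulfates galactose at the 6-position in keratan sulfate. Its brightest probe set read 602, 452 and 417 on the control arrays and 33.2, 22.5 and 31.9 on the PARK2 arrays. All PARK2 arrays were far below all control arrays, and the log2 fold change was -3.48 (SE 0.17, adjusted p 1.2e-26). With a pseudocount of 1 the value was -4.02, and with 64 it was -2.56. A second, dim probe set of CHST1 was at 28.8 ± 17.4 on control arrays and 17.2 ± 14.4 on PARK2 arrays (-0.46, adjusted p 0.41), and the mean of both was at -1.97. CHST2, which sulfates N-acetylglucosamine at the 6-position, read 269.7, 229.8 and 190.0 on the control arrays and 180.2, 129 and 189 on the PARK2 arrays. Its log2 fold change of -0.44 (SE 0.17, adjusted p 0.043) was the closest of the 24 to the threshold. It missed the threshold without control replicate 1 (-0.32) or 2 (-0.43) and without PARK2 replicate 1 (-0.50) or 2 (-0.28), with adjusted p from 0.0569 to 0.38. The call of CHST2 was also lost with a pseudocount of 1 (0.0527), without the filter (0.14), without the trend (0.0948) and without _x_at and _s_at probe sets (0.0519). CHST5, a relative of CHST2, read 12.2, 20.3 and 28.2 on the control arrays and 37.4, 46.1 and 22.7 on the PARK2 arrays. Its groups overlapped, and at 0.50 (SE 0.22, adjusted p 0.0872) it was the member next outside the threshold. CHST5 passed with array weights (adjusted p 0.0316), without control replicate 3 (0.0273) and without PARK2 replicate 3 (0.0331). CHST4 was at -0.29 (SE 0.23, adjusted p 0.41) and passed with array weights (-0.47, adjusted p 0.0338), and CHST6 was under the filter.

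CHST10 sulfates the glucuronic acid of the HNK-1 epitope, an adhesion epitope of neural cells. It read 208, 158 and 170.3 on the control arrays and 164, 152 and 141 on the PARK2 arrays, with a log2 fold change of -0.20 (SE 0.17, adjusted p 0.41) and overlapping groups. The glucuronyltransferases that come before it, B3GAT1 and B3GAT2, were under the filter, as were CHST8 and CHST9, which sulfate N-acetylgalactosamine on other N-glycans.

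UGT8 had the largest change of the set. It codes for ceramide galactosyltransferase, the enzyme of galactosylceramide synthesis that is best known from myelin-forming cells. Its brightest probe set read 11.0, 5.62 and 8.69 on the control arrays and 351, 358 and 405 on the PARK2 arrays. The log2 fold change was 3.99 (SE 0.18, adjusted p 5.1e-29), and since 2 of the 3 control arrays and their mean lay under the filter floor it depends on the pseudocount (5.34 with 1 and 2.59 with 64). A second probe set, marked _s_at, read 1.76 on control and 98.6 on PARK2 arrays (2.67, adjusted p 4.3e-08). All its control arrays were under the filter floor. It passed through the PARK2 arrays alone, so its direction was fixed by the filter. In the same fit over every probe set the brightest one of UGT8 had an adjusted p of 1.8e-11. GAL3ST1, which sulfates galactosylceramide to sulfatide, read from 0.985 to 6.37, under the filter floor on all 6 arrays. Of 5 oligodendrocyte markers looked up, 3 passed the filter and 0 of them changed, and their summed intensity ran from 107 to 147 on control and from 74.1 to 122 on PARK2 arrays. OLIG2 and MOBP were under the filter. GAL3ST4, which sulfates galactose on glycoproteins, read 45.2, 29.6 and 10.9 on the control arrays and 33.7, 2.77 and 29.5 on the PARK2 arrays, with overlapping groups and a log2 fold change of -0.27 (SE 0.26, adjusted p 0.49).

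The 16 members under the filter had values from 0.442 to 21.4 intensity units, and the highest group mean among them was 12.7. Their differences on the log2 scale ran from -0.32 to 0.45 and were not tested in the main comparison. Detection calls were not used here, so a value this low does not show whether the gene is expressed.

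Where a gene had a further probe set past the filter, that probe set mostly had the same sign. For 13 of the 24 genes past the threshold there were 15 such probe sets, of which 12 had the sign of the brightest. In a fit over every probe set 7 of these 12 passed, where 20.4% of 26603 probe sets passed. That share is not a like reference, since these genes were chosen for a brightest probe set that passed on the same arrays. No share was taken over further probe sets of all genes past the threshold. The further probe set of UGT8, which is among the 7, had its direction fixed by the filter. The 3 with the opposite sign were 2 of CHST11 and 1 of UST, and 0 of these passed. The remaining 11 genes rest on a single probe set. Of 11 further probe sets of genes that had not passed, 0 passed. In the fit over every probe set the brightest probe sets of CHST2 (adjusted p 0.0995) and CHST11 (0.0812) missed the threshold.

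**Figure D3:**
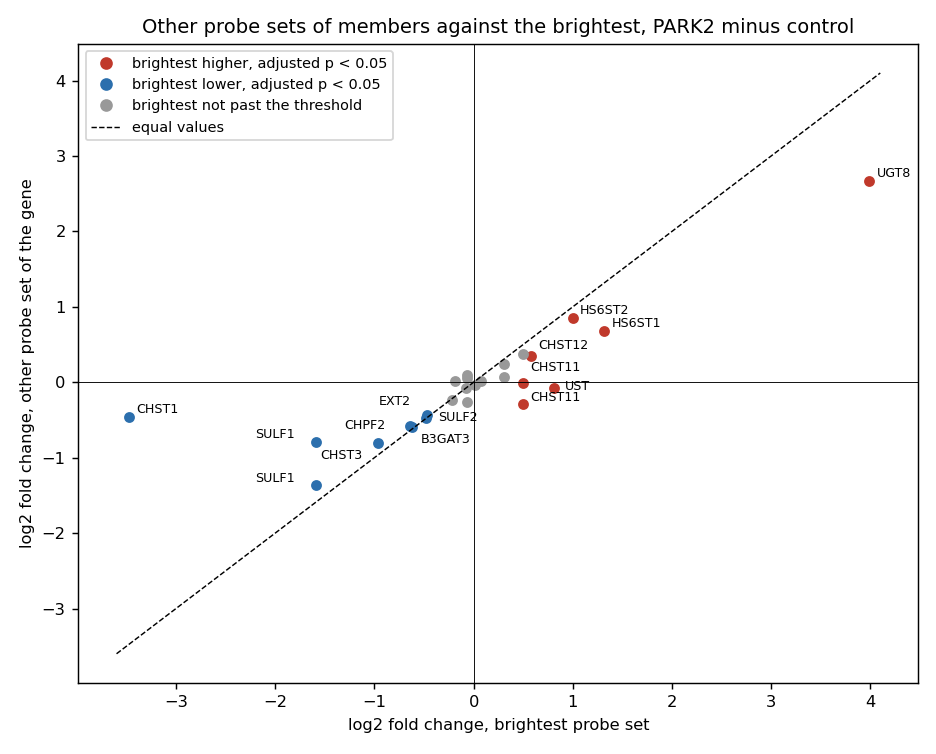
Log2 fold change of each further probe set past the filter (y axis) against that of the gene's brightest probe set (x axis), PARK2 minus control, coloured by the call of the brightest one, with a dashed line of equal values. CHST1 (-0.46 against -3.48), UST (-0.08 against 0.81) and the 2 further probe sets of CHST11 lie off the line.

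Genes that neighbour a member on its chromosome often differed in the same direction. For each member up to 20 tested genes on each side were taken in RefSeq order, and for 20 of the 24 genes past the threshold the median of these neighbours had the sign of the member (83.3%, against 78.8% of all 3954 genes past the threshold that have a position). The neighbours of CHST7 had a median log2 fold change of -0.55, those of GLCE -0.54, those of CHSY1 -0.49, those of CHPF2 -0.48 and those of UGDH 0.51. The neighbours of CHST1 were at 0.06, of SULF2 at 0.04, of EXT2 at 0.04 and of CHST15 at 0.14, against the direction of those genes. When the running median of the neighbours was subtracted on each array, 29.1% of 13701 genes passed. Of the 24 members 19 kept their call (79.2%), as did 70.0% of all called genes. The calls of GLCE (-0.12, adjusted p 0.57), CHSY1 (-0.07, 0.56), CHPF2 (-0.16, 0.23), CHST2 (-0.22, 0.28) and CHST11 (0.29, 0.21) were lost. Values that moved by over 1.5 times with the call kept were those of UGDH (0.44), B3GAT3 (-0.32), CHST7 (-0.80), CHST3 (-0.57), CHST12 (0.34) and HS3ST3A1 (-0.48). CHST10 (-0.35, adjusted p 0.0377) and CSGALNACT2 (0.28, 0.0244) passed under this correction alone. Whether the neighbourhood has a part in these differences was not tested.

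**Figure D4:**
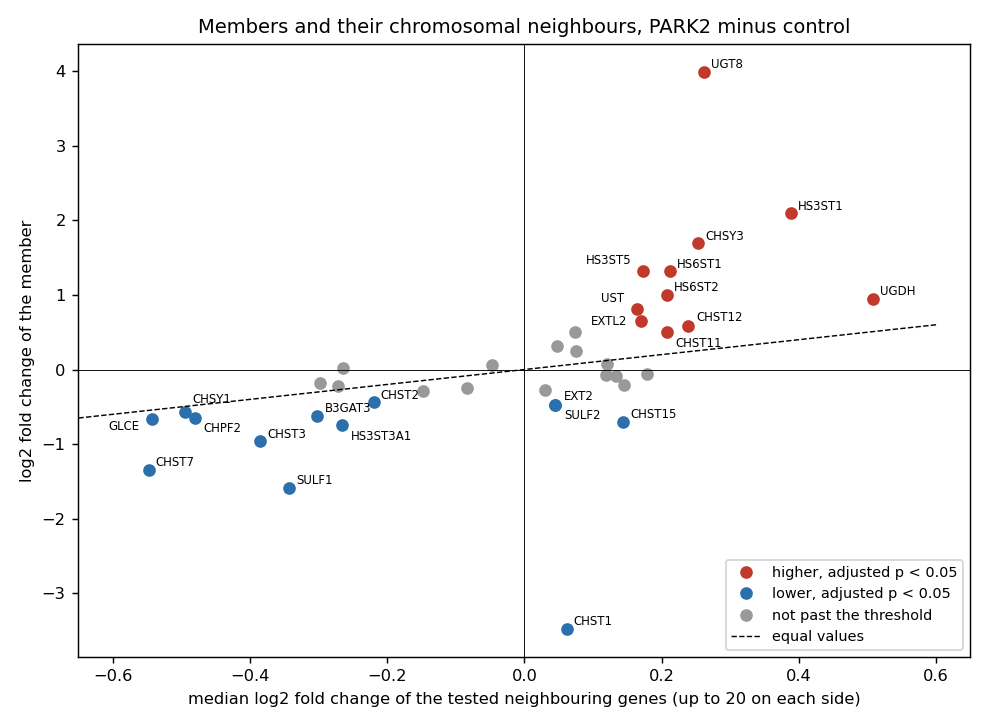
Log2 fold change of each tested member (y axis) against the median log2 fold change of up to 20 tested genes on each side (x axis), PARK2 minus control, coloured by call, with a dashed line of equal values. GLCE, CHSY1 and CHPF2 lie near the line, while UGT8 and CHST1 lie far from it.

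Other genes of the pathway were read from 6 lists of 77 genes, of which 70 had a probe set of their own and 58 were tested. Of these 58, 16 rose (27.6%, against 13.3% of all genes tested) and 11 fell (19.0%, against 15.6%), with a median log2 fold change of 0.06. For the sulfate donor, 2 of 4 tested genes rose and 0 fell. PAPSS2, a synthase of the donor PAPS, rose from 405 ± 48.0 to 893 ± 205 (1.09), and SLC35B3, a PAPS transporter of the Golgi, rose by 0.68. All 4 were higher under quantile normalization, under trimmed mean scaling, with array weights and without control replicate 1, and 1 was higher without _x_at and _s_at probe sets. Of 10 other genes of linkage, transport and epimerisation 4 rose and 1 fell. DSE, an epimerase that turns chondroitin into dermatan sulfate, rose from 45.3 ± 6.1 to 631 ± 85.9 (3.40 on the log2 scale), and its relative DSEL rose by 0.59 (not past the threshold as the mean of its probe sets, 0.30, adjusted p 0.14, and at 1.04 after the neighbour correction). FAM20B, the kinase of the linkage xylose, rose (0.66), and PXYLP1, the phosphatase that removes that phosphate, fell (-1.12). As the mean of probe sets 2 genes of this list rose, and 2 fell under each of the normalizations between arrays, with array weights and without control replicate 3.

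Core proteins carry the chains. Of 12 heparan sulfate core proteins 4 rose (33.3%) and 2 fell (16.7%). Of 12 core proteins of chondroitin, dermatan and keratan sulfate 0 rose and 4 fell (33.3%), and 1 rose with array weights. Over all genes tested 13.3% were higher and 15.6% lower, and with 12 genes in a list these shares are coarse. The difference between the lists was not tested. GPC6, a glypican, rose from 178 ± 23.3 to 751 ± 71.6 (1.99), and GPC4 (0.92), the syndecan SDC4 (0.69) and TGFBR3 (1.73), the betaglycan gene, rose as well. The control level of TGFBR3 was 7.86, under the filter floor, and its value was 2.95 and 0.82 with pseudocounts of 1 and 64. TGFBR3 passed the filter through the PARK2 arrays alone, so its direction was fixed by the filter. It is counted among the 4 that rose and among the risen genes of all lists together. The 2 heparan sulfate core proteins that fell became 1 without the filter, without the trend and after the neighbour correction. The same held without control replicate 1, control replicate 2 or PARK2 replicate 2. PTPRZ1, a receptor phosphatase that carries chondroitin sulfate, fell from 961 ± 243 to 308 ± 37.6 (-1.57), and the testican SPOCK1 (-1.26), serglycin, SRGN (-0.88, and -0.51 after the neighbour correction), and aggrecan, ACAN (-0.73), fell too. The call of ACAN, at 30.8 in control cells, was lost without PARK2 replicate 2, as the mean of probe sets and after the neighbour correction (adjusted p up to 0.76), and its value was -1.34 and -0.31 with pseudocounts of 1 and 64.

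Turnover genes break the chains down in lysosomes and outside the cell. Of 13 genes of lysosomal and extracellular degradation 3 rose and 3 fell, 23.1% each way against 13.3% and 15.6% of all genes tested, and 1 fell without _x_at and _s_at probe sets. Heparanase, HPSE, which cuts heparan sulfate, rose from 104 ± 11.1 to 213 ± 13.9 (0.93, and 1.76 without _x_at and _s_at probe sets), and HGSNAT, the acetyltransferase of lysosomal heparan sulfate breakdown, rose by 0.74 (0.44 as the mean of its probe sets). The lysosomal enzymes HEXA (-0.82, and -0.34 after the neighbour correction) and GUSB (-0.58) fell. HEXA and HGSNAT missed the threshold without _x_at and _s_at probe sets (-0.47 and 0.43, adjusted p 0.10 and 0.11). Of 7 genes of hyaluronan, the unsulfated glycosaminoglycan, 3 rose and 1 fell. The hyaluronan synthases HAS3 and HAS2 changed in opposite directions, HAS3 from 86.1 ± 15.0 to 364 ± 67.7 (1.89, and 0.96 as the mean of its probe sets) and HAS2 from 403 ± 43.6 to 156 ± 28.6 (-1.29). CEMIP, which takes part in hyaluronan breakdown, and its relative CEMIP2 rose by 1.06 and 1.09.

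**Figure D5:**
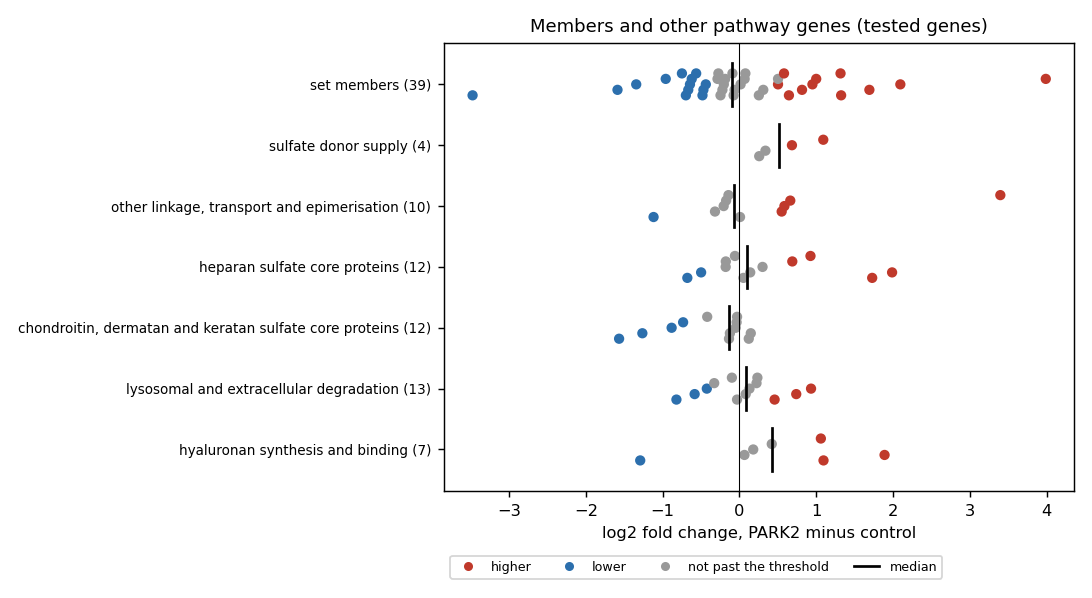
Log2 fold change (x axis, PARK2 minus control) of the tested genes of the set and of 6 other pathway lists, with 1 point per gene, the number tested in brackets, black bars for the medians and colours for limma's call at an adjusted p under 0.05. The 12 tested chondroitin, dermatan and keratan sulfate core proteins show 4 genes lower and 0 higher, where 15.6% and 13.3% of all genes tested were.

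Of 10 glioma and astrocyte markers 9 passed the filter, among them VIM, SOX9, NES, FABP7 and GFAP, while AQP4 did not. The filter was passed by 13720 of the 19775 genes with a probe set of their own, so this is a weak check of the label. Of these markers GFAP was higher in PARK2 cells (0.53), and S100B (-1.39) and SLC1A3 (-0.72) were lower. Of 6 neuronal markers, 4 of which passed the filter, 3 were higher and 1 was lower. The neuronal markers that rose were SYT1, SNAP25 and TUBB3, while GAP43 fell from 673 to 42.2 (log2 fold change -3.56). RBFOX3 and STMN2 were under the filter. The summed neuronal markers ran from 4253 to 4759 on control and from 5464 to 5829.8 on PARK2 arrays. Most of these sums was TUBB3, with means of 3827 and 5330, so they do not show a rise of the list as a whole. The part of these markers in the changes of the members was not tested. Of 5 leukocyte markers 1 passed the filter, of 5 endothelial ones 2, and of 6 epithelial ones 2, with KRT18 lower. Array medians ran from 16.3 to 19.3 intensity units. Control replicate 1 was the highest control array for 11 of the 13 lower members (84.6%) and for 84.6% of all 2139 lower genes, a like share. It was the highest for 8 of the 11 higher members (72.7%) and for 74.1% of all genes tested. The share over all higher genes was not taken. When control replicate 1 was left out, 12 members were higher and 11 lower, and over all genes 2799 were higher against 1818 with it. Without control replicate 1 the members that lost their call were CHST2 and SULF2.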

How the data were processed

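The deposited table holds an intensity on a linear scale for each probe set of each array. The submitters' processing notes name GCOS and MAS5, without a version or a scaling target, so how the arrays were scaled is unknown, and the genome build is not given in the sources used here. No transgene level is reported here, and group labels were taken as given.

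Probe sets were named through GEO's platform annotation (41091 of 54675 with 1 gene symbol, 1801 with several and 11721 with none, besides 62 controls). All 55 member symbols were found by gene number in the RefSeq table of GRCh38.p14, which changed 0 of them and was used for gene order without coordinates. Promoter sequences, available for 49 members, are from RefSeq (GRCh38.p14).

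Values were taken as log2(intensity + 16) without normalization, probe sets of 1 gene with a mean at or above the 40th percentile were kept, and the brightest per gene was tested. A fold change on this scale understates that of dim genes. The comparison used limma 3.58.1 in R 4.3.3 over 13720 genes, letting the variance follow intensity. The variance model had 60.8 prior against 4 residual degrees of freedom. The SE and p-value of a gene therefore rest mostly on the spread of genes of like intensity over these arrays, and less on its own. The fit was tested on simulated data with known changes, given to 200 of 13720 genes. In those data it recovered 25.4% of 1.5-fold, 80.6% of 2-fold and 100% of 4-fold changes, and 8 unchanged genes were called. On the real arrays 1818 genes were called higher and 2139 lower, and the adjustment of p depends on how many genes change. The recovery rates therefore do not carry over to the comparison, and its own recovery was not tested. A member that did not pass the threshold may still differ by a small fold. The number of arrays limits the precision.

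The members, gene lists and settings were chosen with earlier results of these data known. All members could be named, the values of every array were given for those past the threshold and for others by role, and up to 4 genes with the largest change past the threshold were named from each other list. Alternatives covered the filter, pseudocount, normalization, variance model, array weights (estimated gene by gene), choice of probe set, replicate block, a neighbour correction and each left-out array, and the fit over every probe set was added after seeing the data. Lists were not tested as sets.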

Additional observations from a re-analysis of the deposited data

How the results depend on the processing

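Under 19 alternatives the number of members higher ran from 8 to 12 (11 as reported) and lower from 10 to 14 (13), each within 1.5 times. Of the 24 members past the threshold, 14 kept their call and 0 changed sign under all 19 (fewer where a filter left the gene out), and of 22 other pathway genes named, 18 did. Leaving out each array in turn gave 10 to 12 members higher and 10 to 13 lower, and among all genes tested 1225 to 2799 higher. The count of all genes higher was 3346 with array weights. The replicate numbers do not clearly pair the arrays (r of deviations from the group means across genes 0.17, 0.045 and 0.065 for same-numbered arrays, -0.12 to 0.069 for others). With the replicate number as a block, 10 members were higher and 12 lower, CHST2 (adjusted p 0.0807) and CHST11 (0.0529) missing the threshold. Members not past the threshold changed sign in 16 instances, and the cause was not tested. These were CHPF with array weights (0.024), XYLT2 (0.050), HS3ST3B1 (0.11) and EXTL3 (-0.044) after the neighbour correction, CSGALNACT2 as the mean of probe sets (-0.014), and, without 1 array, CHPF (-0.24 to 0.063), CHST14 (-0.018 to 0.19), CSGALNACT2 (-0.050 to 0.12), GAL3ST4 (-0.60 to 0.17), HS2ST1 (-0.13 to 0.057) and UXS1 (-0.15 to 0.010), each range over the 6 arrays left out. For dim genes such as UGT8 and HS3ST5, the signal over background limits the size of the fold.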
